A study of Mus musculus with 5 samples.

Results

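Transcript levels of hematopoietic stem cells (HSCs) from the bone marrow of wild-type mice aged 3 weeks are described here from 3 RNA sequencing libraries, out of 5 libraries in all. The other libraries come from RankCre-ki animals and were not used. All 3 wild-type libraries were labelled as bone marrow HSCs of strain C57BL/6J, without any engineered allele being named. Replicate 1 was labelled male, and replicates 2 and 3 female. The HSCs were sorted as KSL CD48- CD150+ cells, that is, cells without lineage markers that carry Kit and Sca-1 (KSL) and CD150 on their surface but not CD48. The libraries were prepared from few cells: their names end in 90, 90 and 80 for replicates 1 to 3, which is taken here as the count of sorted HSCs. How many animals were pooled is not given in the sources used here, and the letters RC in the names of replicates 2 and 3 are not explained there. A gene was counted as expressed when it reached at least 1 TPM in each of the 3 libraries. TPM, a unit in which each library sums to 1000000, is the length-corrected share of a gene in its library, so levels of different genes can be set side by side. The rule kept 6084 of the 55335 genes in the table, or 11.0%, and these were ranked by the mean of log2(TPM + 1) over the libraries. Among nuclear protein-coding genes it kept 5682 of 21886, or 26.0%, and this share is the background for the gene lists below. As 1 group was described, no test between groups was made, and values are given per library or as mean ± SD over the 3 libraries.

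HSCs sit at the top of the blood lineage tree, where they renew themselves and give rise to progenitors of every blood cell type. In adults most HSCs are out of the cell cycle, with little biosynthesis, whereas fetal HSCs divide often. In mice the change from the fetal to the adult state takes place within the first weeks after birth. Transcription factors of the HOX, GATA, ETS, RUNX and MEIS families hold the stem cell state, and the niche acts through surface receptors such as Kit and Cxcr4.

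All 6 HSC markers, Kit, Ly6a, Slamf1, Procr, Mecom and Hlf, were expressed in every library. Kit, the receptor of stem cell factor, was at 20.4, 107 and 102 TPM in replicates 1, 2 and 3. Ly6a, which encodes Sca-1, was at 72.1, 159 and 185 TPM. For both of these sort genes replicate 1 was the lowest library, and replicates 2 and 3 lay close together. Slamf1, which encodes CD150, was at 41.8, 16.5 and 20.9 TPM, with replicate 1 the highest. Procr, the endothelial protein C receptor that enriches HSCs in many sorts, was at 19.1, 11.7 and 46.3 TPM. Mecom, a zinc finger factor needed for HSC maintenance, was at 19.4, 47.3 and 131 TPM, and Hlf, a PAR bZIP factor of stem cells, at 23.2, 23.9 and 84.8 TPM. Replicate 3 was the highest library for Procr, Mecom and Hlf. Their percentiles among the expressed genes, where 100 is the highest level, were 84.4 for Ly6a, 70.4 for Kit, 65.4 for Mecom, 57.2 for Hlf, 45.8 for Slamf1 and 42.5 for Procr, so none of the 6 was among the very abundant transcripts.

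Of 25 genes for HSC surface proteins, 18 (72.0%) were expressed, against 26.0% of nuclear protein-coding genes. The highest was Cd81, a tetraspanin, at 591, 1291 and 1423 TPM. Cd63, another tetraspanin, was at 518, 658 and 793 TPM, and Cd9 at 134, 193 and 234 TPM. Ly6e, a GPI-anchored protein of the Sca-1 family, was at 157, 983 and 1117 TPM. In all 4 the lowest library was replicate 1, by a wide margin for Ly6e. Adgrg1, the adhesion receptor GPR56, showed no such order at 212, 170 and 217 TPM. The 7 genes that did not pass in all libraries were Cd82, Alcam, Itga2b, Jam3, Robo4, Thy1 and Itgb3, and each of them reached 1 TPM in at least 1 library. Cd82 was at 49.8, 0 and 14.3 TPM and Jam3 at 0.376, 0.0191 and 23.8 TPM, so for these genes the libraries ranged from absent to well detected.

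Of 36 HSC transcription factors, 28 (77.8%) were expressed, with a median percentile of 39.6, below the middle of the expressed genes. This place was not stable. The median was 52.2 without replicate 1, 50.8 without replicate 2 and 45.5 without replicate 3, over the genes that pass in the others. The highest was Lmo2, the LIM-domain bridge of the SCL complex, at 195, 301 and 454 TPM. Meis1, the HOX cofactor, followed at 103, 136 and 198 TPM, and Mycn at 31.2, 81.4 and 187 TPM. In all 3 replicate 1 was the lowest library and replicate 3 the highest, and the spread was widest for Mycn. Myct1, a MYC target of the stem cell compartment, was at 65.0, 70.7 and 89.5 TPM. Myb was at 44.0, 50.3 and 103 TPM and Hoxa9 at 26.5, 51.7 and 107 TPM. The 8 factors below the limit in some library included all the HOXB genes on the list. Hoxb4 was at 6.36, 0.0768 and 0.0367 TPM and Hoxb5 at 0, 4.12 and 0 TPM, each reaching 1 TPM in a single library. Hoxa7 was at 0.0892, 28.9 and 29.4 TPM, below 1 TPM in replicate 1 alone. The others were Tal1 (0.321, 5.68 and 7.52 TPM), Prdm16 (0.498, 0.492 and 11.1 TPM), Foxo3 (9.60, 0.359 and 12.6 TPM), Tcf15 (5.96, 0 and 3.22 TPM) and Satb1 (0.0447, 1.04 and 5.50 TPM). None of the 36 was below 1 TPM in all 3 libraries.

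**Figure D1:**
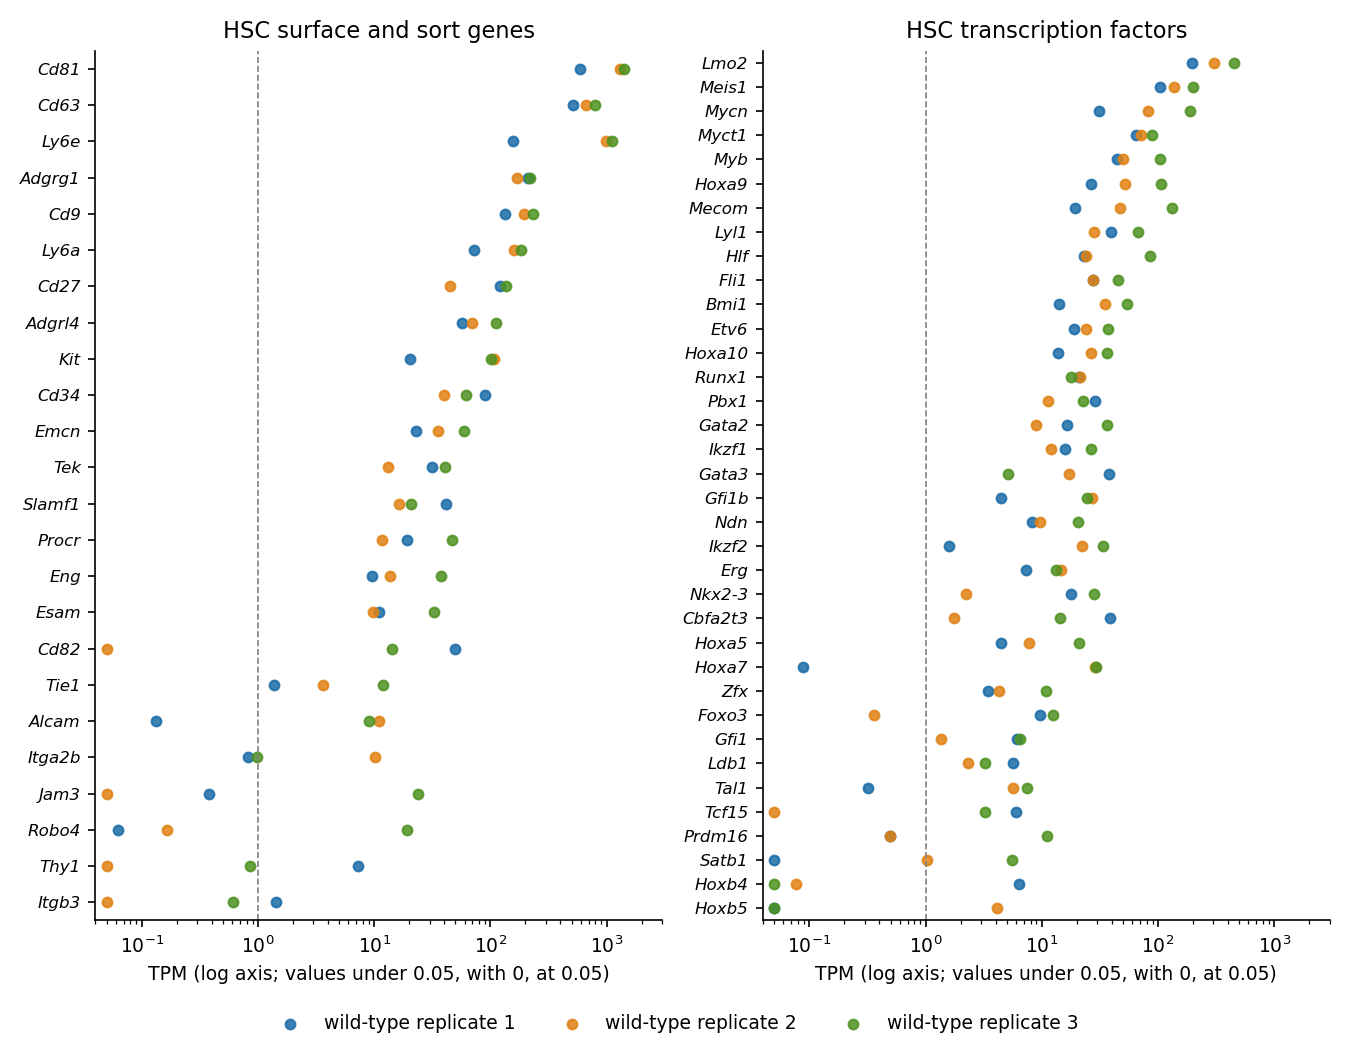
TPM of 24 of the 25 HSC surface genes on the list and 36 HSC transcription factors in the 3 wild-type libraries, on a log axis, each point being 1 library and the dashed line the limit of 1 TPM. Lmo2 and Cd81 lead their lists in every library, while lower genes such as Hoxb5 and Jam3 range from 0 or near 0 to several TPM or more.

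Few genes of the fetal HSC programme were expressed, 3 of 14 (21.4%), a share near the background. Hmga1, a chromatin protein of dividing cells, was at 219, 58.3 and 208 TPM, Igf2bp2, an RNA-binding protein, at 32.5, 17.1 and 39.5 TPM, and Hmga2, a target of the Lin28b pathway, at 4.21, 23.9 and 17.9 TPM. Lin28b itself, the switch of the fetal state, was at 0, 0 and 17.6 TPM, and Sox17, needed by fetal and neonatal HSCs, was at 0 in all 3 libraries. Hmga2 was thus found in every library, and Lin28b in replicate 3 alone. Of 21 genes known to be higher in HSCs of aged mice, 4 (19%) were expressed, beside the 26.0% background, and Gpr183 was at 0 in all libraries. Vwf, which marks platelet-biased HSCs, was at 27.2, 22.5 and 34.8 TPM. Enpp5 was at 84.2, 26.0 and 47.9 TPM, Nupr1 at 11.3, 79.4 and 40.7 TPM, and Gstm2 at 28.6, 38.2 and 26.9 TPM. With replicate 1 left out, 9 of the 21 genes passed, beside 33.1% of all nuclear protein-coding genes.

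Markers of cells that the sort should remove were mostly at or near 0. Cd48, the surface protein used for exclusion, was at 0 in all 3 libraries, and Flt3, the receptor of multipotent progenitors, was at 1.13, 3.61 and 8.54 TPM. The summed level of the 8 genes outside the CD48- CD150+ gate was 4.94, 3.65 and 8.61 TPM. Of 10 B cell markers, Cd79b, a chain of the B cell receptor complex, was expressed, at 37.6, 75.0 and 147 TPM, whereas Cd79a, Pax5, Igll1 and Vpreb2 were at 0 in all libraries. The T and NK cell list summed to 3.75, 36.5 and 47.1 TPM. In replicates 2 and 3 nearly all of this was Nkg7 (0, 35.6 and 45.7 TPM), and in replicate 1 it was mostly Cd3d (2.24, 0.885 and 1.42 TPM), with Cd3e, Cd3g, Trac and Ncr1 at 0. Granulocyte and monocyte markers gave 2 expressed genes of 16. These were Prtn3, proteinase 3 of neutrophil granules, at 421, 219 and 175 TPM, and Lyz2, lysozyme, at 228, 268 and 250 TPM. Both were high among the expressed genes, at percentiles of 92.0 and 91.7, while Elane, the neighbour of Prtn3 on chromosome 10, Ctsg, Camp, Ltf, Lcn2, Fcnb and Ly6g were at 0 in all libraries. The list summed to 658, 487 and 433 TPM. No macrophage or osteoclast marker of 16 was expressed in all libraries, and the list summed to 22.9, 58.5 and 63.0 TPM. Most of the sum in replicates 2 and 3 was Cd68, a lysosomal protein, at 0.362, 32.5 and 38.1 TPM. Acp5, the phosphatase of osteoclasts, was at 14.8, 0 and 14.2 TPM and C1qb at 0, 11.8 and 0 TPM, while Adgre1, C1qc, Mrc1 and Mmp9 were at 0 in all libraries. Without replicate 1, 2 of the 16 passed, beside 33.1% of all nuclear protein-coding genes. Stromal markers summed to 18.7, 14.1 and 7.16 TPM and endothelial markers to 55.8, 54.6 and 126 TPM, of which Emcn and Pecam1, both also made by HSCs, were the expressed members. In bulk RNA a few cells of a type and a low level in every cell cannot be told apart.

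Erythroid and megakaryocyte genes were uneven. Car2, carbonic anhydrase 2, was at 788, 1101 and 1753 TPM, at the 98.4 percentile, but Slc4a1, the anion exchanger that marks red cell precursors, was at 0 in all libraries. Of 13 erythroid markers 3 (23.1%) were expressed, a share near the 26.0% background, and these were Car2 and both beta globins. The count was 3 without replicate 1, 5 without replicate 2 and 4 without replicate 3. Over all genes the count rose from 6084 to 7845, 7372 and 6490 in these settings. Hbb-bt was at 36.2, 124 and 109 TPM, at the 75.5 percentile, and Hbb-bs at 78.9, 23 and 24.7 TPM, at the 56.7 percentile. The alpha globins Hba-a2 (68.2, 0 and 9.52 TPM) and Hba-a1 (31.6, 0 and 3.78 TPM) were at 0 in replicate 2. Epor (41.1, 0 and 0 TPM), Car1 (20.7, 0 and 0 TPM) and Klf1 (1.73, 0 and 0 TPM) were above 0 in replicate 1 alone, whereas Rhag was at 12.6, 16.9 and 0 TPM and Alas2 at 0, 0 and 1.34 TPM. These genes were chosen after their values were seen. Of 17 megakaryocyte genes 8 (47.1%) were expressed. Nfe2, a factor of platelet formation, was at 280, 121 and 454 TPM and Pf4, platelet factor 4, at 147, 48.9 and 38.4 TPM, while Gp1ba and Tubb1 were at 0 throughout. The part of admixed cells in these levels was not tested.

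The most abundant transcripts came from the mitochondrial genome. Mitochondrially encoded genes held 14.7%, 21.0% and 16.7% of TPM (17.5% ± 3.25, SD, n = 3), and all 13 protein genes were expressed. The first 3 ranks were taken by mt-Atp6 (34515, 48864 and 49697 TPM) and mt-Atp8 (29249, 52299 and 34652 TPM), subunits of ATP synthase, and mt-Cytb (13604, 50134 and 31932 TPM), of complex III. mt-Cytb was lowest in replicate 1 and varied more than mt-Co1 (6873, 8791 and 9179 TPM) and mt-Co2 (8351, 7416 and 7689 TPM), both of complex IV. The lowest of the 13 by rank, named for that reason, was mt-Nd3, at 666, 155 and 272 TPM.

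A nuclear stretch of chromosome 1 carries near-identical copies of these genes, and 2 of the copies were among the 10 highest genes. Gm29216 matched mt-Co1 over 483 bases with 99.793% identity, and Gm10925 matched mt-Atp6 over 678 bases with 100% identity. Gm10925 lies at chr1:24613974-24614651 and Gm29216 at chr1:24615706-24616197, both on the minus strand of GRCm38 and both annotated as unprocessed pseudogenes. Bases 1 to 60 of the first pair, and a stretch of 60 bases of the second pair, are shown because they make plain that a read from most of these positions has no base by which to be assigned. Capitals mark the 1 mismatch of the second pair, and all sequences are written 5′ to 3′.
mt-Atp6: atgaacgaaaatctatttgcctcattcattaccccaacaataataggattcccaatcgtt
Gm10925: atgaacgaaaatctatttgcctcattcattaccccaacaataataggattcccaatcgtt
mt-Co1: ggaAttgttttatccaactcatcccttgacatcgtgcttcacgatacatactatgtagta
Gm29216: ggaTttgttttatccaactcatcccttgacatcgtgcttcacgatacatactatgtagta
Gm10925 was at 566, 54965 and 23226 TPM, the widest range in fold among the 30 highest genes, while Gm29216 was even at 13693, 12054 and 10878 TPM. The sum of mt-Atp6 and Gm10925 was 35081, 103829 and 72922 TPM, and that of mt-Co1 and Gm29216 was 20566, 20846 and 20057 TPM. The second sum was nearly the same in all libraries, and the first was not. TPM is corrected for length, and Gm29216 has 492 bases against 1545 for mt-Co1. The second sum would therefore change with the division of shared reads, and is not a pooled level. The division of signal within each pair is uncertain, and so is the rank of each member of it. Together, 5 such copies held 1.43%, 6.70% and 3.69% of TPM.

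Ribosomal proteins held the largest share of TPM of all the lists of nuclear genes. All 79 cytosolic ribosomal protein genes were expressed, with a median percentile of 98.6, and their median level was 1369 TPM. They held 24.5% of TPM in replicate 1 against 9.59% and 10.9% in replicates 2 and 3. Rps27 ranked first among nuclear protein-coding genes, at 29602, 5981 and 5437 TPM. Rpl32 was at 14994, 2665 and 3592 TPM. In both of these replicate 1 exceeded both others, which lay much closer together. Not every member showed it, since Rps6 was at 4930, 4076 and 4315 TPM, Rps18 at 3160, 2987 and 3631 TPM and Rpl4 at 2711, 2594 and 2832 TPM. Over the family, 72 of 79 genes were higher in replicate 1 than the mean of the other libraries, with a median difference of 1.12 on the log2(TPM + 1) scale, against -0.301 over all expressed genes. The median of the family was 1.06 with TPM rescaled over nuclear protein-coding genes and 0.651 after quantile normalization, when 61 of 79 were higher.

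**Figure D2:**
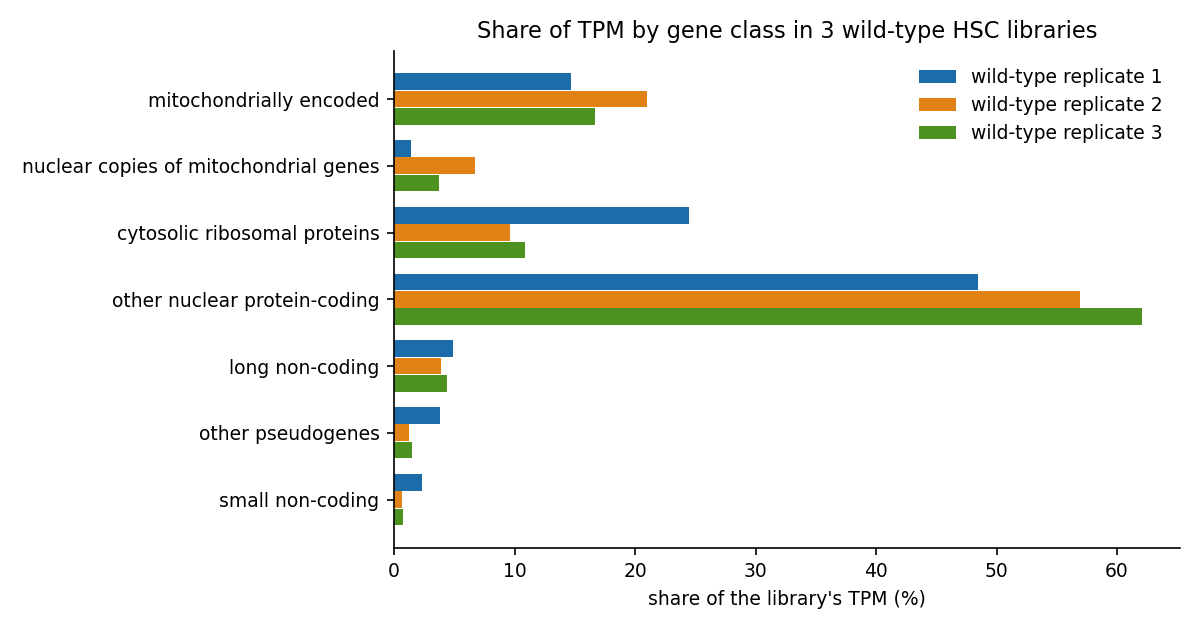
Share of each library's TPM, in percent, by class of gene, with 1 bar for each of the 3 wild-type libraries. Ribosomal protein genes take 24.5% in replicate 1 and 9.59% and 10.9% in replicates 2 and 3, and nuclear copies of mitochondrial genes are largest in replicate 2 at 6.70%.

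The 3 lowest ribosomal protein genes each had an expressed pseudogene of identical sequence, and these genes were chosen after their values were seen. Rpl5 was at 70.3, 64.8 and 97.6 TPM, Rpl12 at 91.0, 11.7 and 15.8 TPM and Rpl27a at 410, 119 and 172 TPM. Gm15500, identical to Rpl5 over 1018 bases, was at 1362, 1471 and 1559 TPM. Gm10275, identical to Rpl12 over 634 bases, was at 908, 429 and 726 TPM, and Gm7536, identical to Rpl27a over 444 bases, was at 1594, 324 and 624 TPM. In each of the 3 pairs the copy stood above the gene in every library, so the low rank of these genes is uncertain. Coding bases 1 to 60 of Rpl5 (chr5:107900502-107909005, plus strand) and the matching bases of Gm15500 (chr7:114705217-114706235, minus strand) are given as an example, without a mismatch to mark.
Rpl5: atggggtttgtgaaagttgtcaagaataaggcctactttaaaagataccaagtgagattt
Gm15500: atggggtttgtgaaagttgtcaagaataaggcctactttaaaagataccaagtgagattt
Of 97 expressed pseudogenes, 25 matched a ribosomal protein transcript with at least 95% identity over at least 100 bases, and these 25 summed to 12540, 4077 and 5446 TPM. The same holds for a gene annotated as protein-coding, Gm2000, which ranked among the 20 highest nuclear protein-coding genes at 8016, 2381 and 1033 TPM and matched Rpl35 over its 445 bases with 99.6% identity. Rpl35 itself was at 9156, 3463 and 3009 TPM.

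Ribosomal protein messages are known for a pyrimidine tract at their first bases, through which growth signals control their translation as a group. The motif CTTTC was searched in 30 bases around each start, from 12 bases before it to 18 bases from it on, in the RefSeq start table of build GRCm38.p6. It was found on the gene's strand at 17 of 68 starts (25%) of the 58 ribosomal protein genes that could be matched, against 3.90% of all 32851 starts and 3.36% of those of expressed nuclear protein-coding genes. On the opposite strand, as GAAAG, it was at 4.41% of the ribosomal protein starts and 3.64% of all starts. Windows of 4 of the highest ribosomal protein genes that hold it are shown with the motif in capitals.
Rps27, chr3:90213631-90213660, minus strand: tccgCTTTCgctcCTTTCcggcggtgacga
Rpl35, chr2:39005114-39005143, minus strand: ccccgccCTTTCctCTTTCtctcgaaccag
Rpl13, chr8:123102338-123102367, plus strand: cCTTTCgcctgattttgattggcgtttgag
Rpl13a, chr7:45128728-45128757, minus strand: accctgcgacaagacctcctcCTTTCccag
Rps27 and Rpl35 hold it 2 times, of which the first lies before the start. In Rpl13 it lies before the start only, so outside the message. The match is a description of these letters alone.

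All 24 translation factor genes on the list were expressed as well, with a median percentile of 94.9. Eef1a1, the elongation factor that delivers aminoacyl-tRNA, was at 3015, 2545 and 3983 TPM. Npm1, a nucleolar chaperone of ribosome assembly, was at 752, 1853 and 1729 TPM, and Eif5a at 972, 1289 and 1856 TPM. These factors did not share the order of the ribosomal proteins, since 19 of 24 (79.2%) were lower in replicate 1 than the mean of the others, beside 60.4% of all expressed genes, and the median difference was -0.734 on the log2(TPM + 1) scale (-0.800 rescaled, -0.738 after quantile normalization).

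Other nuclear transcripts of the highest ranks had varied roles. Ubb, a polyubiquitin gene, was at 6525, 10058 and 8932 TPM, and B2m, the light chain of MHC class I, at 5611, 11256 and 8685 TPM. Ifitm1, an interferon-induced membrane protein, was at 2724, 7802 and 8225 TPM. Hmgn2, a nucleosome-binding protein, was at 1812, 9108 and 6771 TPM and H3f3b, which encodes histone H3.3, at 1953, 5126 and 3611 TPM. In each of these 5, replicate 1 was the lowest library. Ftl1, the ferritin light chain, was at 5454, 3099 and 4061 TPM, and Ppia, cyclophilin A, was even at 2426, 2833 and 2925 TPM.

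Genes of the respiratory chain were expressed at high levels. All 45 nuclear subunit genes on the list, which does not hold every subunit, were expressed, with a median percentile of 95.6 and levels from 63.5 to 954 TPM as means. Cox4i1, of complex IV, was at 1025, 1074 and 762 TPM, Ndufb8, of complex I, at 644, 907 and 973 TPM, and Uqcrh, of complex III, at 1584, 616 and 542 TPM. The median of their SDs was 0.424 on the log2(TPM + 1) scale, against 0.521 for the 1521 highest of the expressed genes, where most of the list lies. For glycolysis 18 of 22 genes (81.8%) were expressed. The top ones were Gapdh at 541, 358 and 573 TPM, Aldoa at 461, 330 and 559 TPM and Eno1 at 404, 198 and 388 TPM. Slc16a3, a lactate exporter, was at 0 in all libraries, and Slc2a1 (0.0434, 12.9 and 15.2 TPM), Hk2 (0.136, 12.9 and 8.71 TPM) and Pfkm (0, 6.92 and 2.43 TPM) were below the limit in replicate 1. The median percentile of the list was 84.0, and 53.7 with replicate 1 left out, when genes at low levels joined. Of 22 antioxidant and FoxO genes 19 (86.4%) were expressed, led by Gpx1, glutathione peroxidase, at 1158, 828 and 911 TPM, and Prdx1, a peroxiredoxin, at 262, 827 and 876 TPM. Foxo3 and Gsr (0.00784, 8.80 and 25.4 TPM) each missed the limit in 1 library, and Foxo4 was below it in all.

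Chaperone and antigen presentation genes ranked high. Of 18 heat shock and ubiquitin genes 15 (83.3%) were expressed, at a median percentile of 92.7. Hspa8, the constitutive Hsp70, was at 1876, 3062 and 2876 TPM, and Hsp90ab1 at 480, 758 and 1060 TPM. The stress-induced Hspa1a (0.00665, 0 and 0 TPM), Hspa1b (0, 0.921 and 0 TPM) and Hspb1 (0, 0 and 3.23 TPM) were the 3 that were not expressed. The list of MHC class I and GIMAP genes had 14 of 20 (70.0%) expressed. H2-K1, a class I heavy chain, was at 426, 1475 and 1297 TPM, H2-D1 at 316, 349 and 711 TPM, and Gimap6, a GTPase of lymphocytes, at 545, 694 and 960 TPM. Gimap7 was at 0 in all libraries. Tap1 (0.0785, 11.4 and 34.9 TPM) and Tap2 (0.104, 7.15 and 13.2 TPM), the peptide transporter, were found in replicates 2 and 3 but not in replicate 1.

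Genes of DNA replication were expressed to a larger extent than those of mitosis. Of 25 S phase genes 18 (72.0%) passed, at a median percentile of 68.8. Rfc2, of the clamp loader, was at 276, 180 and 393 TPM, Pcna, the sliding clamp, at 46.3, 407 and 417 TPM, and Mcm6, of the replicative helicase, at 129, 236 and 237 TPM. Tyms, thymidylate synthase, was at 67.1, 197 and 137 TPM. For Pcna and Tyms replicate 1 was the low library, and 15 of the 18 S phase genes were lower in replicate 1 than the mean of the others (16 of 18 rescaled, 11 of 18 after quantile normalization). Of all expressed genes 60.4% were lower in replicate 1 (63.9% rescaled, 49.3% after quantile normalization). Cdc6 (0, 4.91 and 39.2 TPM) and Rrm2 (0, 0 and 77.8 TPM) were among the 7 that did not pass. Of 25 G2 and M phase genes 5 (20%) were expressed, beside the 26.0% background, and Plk1, Aurkb and Kif20a were at 0 in all libraries. Those found were Cks2 (98.1, 280 and 105 TPM), Cdk1 (31.2, 148 and 52.0 TPM), Kif23 (46.6, 65.6 and 7.87 TPM), Cenpa (11.9, 27.6 and 16.2 TPM) and Mki67 (19.7, 5.02 and 7.71 TPM). Cks2, Cdk1, Kif23 and Cenpa were highest in replicate 2, and Mki67 in replicate 1. The summed level of the list was 229, 772 and 317 TPM. Without replicate 1 the count was 9 of 25, beside 33.1% of all nuclear protein-coding genes. A small share of dividing cells and a low level in many cells cannot be told apart here.

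Regulators of the cell cycle were led by Ccnd2, a D-type cyclin, at 302, 211 and 375 TPM, and Cdk4, its partner kinase, at 132, 410 and 406 TPM, and 9 of 16 cyclin and CDK genes (56.2%) were expressed. Of 14 CDK inhibitor and pocket protein genes 11 (78.6%) were expressed, and 7 at a limit of 5 TPM. The list also holds genes of neither kind, such as Txnip, a brake on glucose uptake, at 604, 179 and 241 TPM, and Trp53 at 86.3, 83.8 and 156 TPM. Cdkn2d was at 82.6, 90.9 and 48.5 TPM. Cdkn1c, which encodes p57 and keeps HSCs out of the cycle, was at 25.6, 17.0 and 45.5 TPM. Cdkn2a and Cdkn2b, known for senescence, were at 0 in all libraries, and Cdkn2c was at 0, 0 and 4.73 TPM.

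Immediate early genes, which respond within minutes to stimulation or to cell handling, were expressed in 18 of 28 cases (64.3%). Dusp1, a MAP kinase phosphatase, was at 255, 731 and 565 TPM, Fos at 336, 264 and 175 TPM and Egr1 at 182, 124 and 186 TPM. Ier2 was at 248, 180 and 328 TPM and Zfp36l2 at 156, 232 and 281 TPM. Fos, Ier2 and Egr1 stood within the highest 15% of expressed genes in their mean, while Atf3, Egr3 and Socs3 were at 0 in all libraries. The time between isolation and lysis is not given in the sources used here, and its part in these levels was not tested.

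Adhesion and homing genes were expressed in 12 of 20 cases (60%). The top ones were small GTPases of the cytoskeleton, Cdc42 at 107, 404 and 353 TPM, Rac2 at 145, 115 and 177 TPM and Rac1 at 68.6, 90.1 and 235 TPM. Selplg, the P-selectin ligand, was at 51.7, 58.4 and 100 TPM, and Itgb1, the integrin chain of niche anchorage, at 31.5, 24.4 and 85.3 TPM. Cxcr4, the receptor of the niche chemokine CXCL12, was low in every library, at 2.14, 6.99 and 5.09 TPM, and at the 4.70 percentile; it was chosen after its values were seen. Cdh2 was at 0 throughout. Of 40 cytokine and growth factor receptor genes 19 (47.5%) passed, at a median percentile of 19.3, the lowest of the lists with at least 3 expressed genes, and 10 passed a limit of 5 TPM. Il2rg, the common gamma chain, was at 222, 646 and 576 TPM and Ifngr1, of the interferon gamma receptor, at 41.4, 176 and 104 TPM. Il10rb was at 32.3, 47.2 and 42.5 TPM and Ifnar2, of the type I interferon receptor, at 45.7, 35.4 and 20.1 TPM. Il10ra was at 0 in all libraries.

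Downstream signal transducers passed in 22 of 33 cases (66.7%), at a median percentile of 36.3. Socs2, a feedback inhibitor induced by STAT5, was at 90.8, 192 and 195 TPM. Ctnnb1, beta-catenin, was at 55.7, 123 and 222 TPM, and Pik3r1, the regulatory subunit of PI3 kinase, at 44.0, 56.5 and 116 TPM. All 3 were lowest in replicate 1. Akt1 (0.125, 6.44 and 10.5 TPM) and Mapk3 (0.0561, 9.70 and 21.4 TPM) did not pass in replicate 1, and Socs3 was at 0.

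Chromatin regulators were expressed in 19 of 30 cases (63.3%), again at a median percentile of 36.3. Hdac1, a histone deacetylase, was at 106, 100 and 144 TPM, and Hdac2 at 48.2, 34.4 and 113 TPM. Ezh2 was at 0.164, 22.9 and 43.8 TPM and so fell outside, and Suz12, of the same Polycomb complex, at 0.0829, 37.1 and 14.5 TPM, while Eed was expressed at 42.2, 9.26 and 87.6 TPM. Splicing factors were expressed in 25 of 28 cases (89.3%), led by Hnrnpk at 671, 1027 and 1509 TPM and Hnrnpa2b1 at 561, 887 and 1161 TPM. Among non-coding RNAs, Malat1, a nuclear RNA, was highest at 8619, 15313 and 17328 TPM. Gm37376, a provisional gene model at chr19:5801941-5802393 that lies inside Malat1, was at 4198, 7779 and 9088 TPM, and its level cannot be told apart from that of Malat1. Gas5, a host of small nucleolar RNAs, was at 8311, 3076 and 2638 TPM. CT010467.1, annotated as ribosomal RNA, was at 7217, 647 and 784 TPM and Gm47551, an antisense RNA, at 1006, 875 and 887 TPM. Gas5 and CT010467.1 were highest in replicate 1 and Malat1 lowest there.

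**Figure D3:**
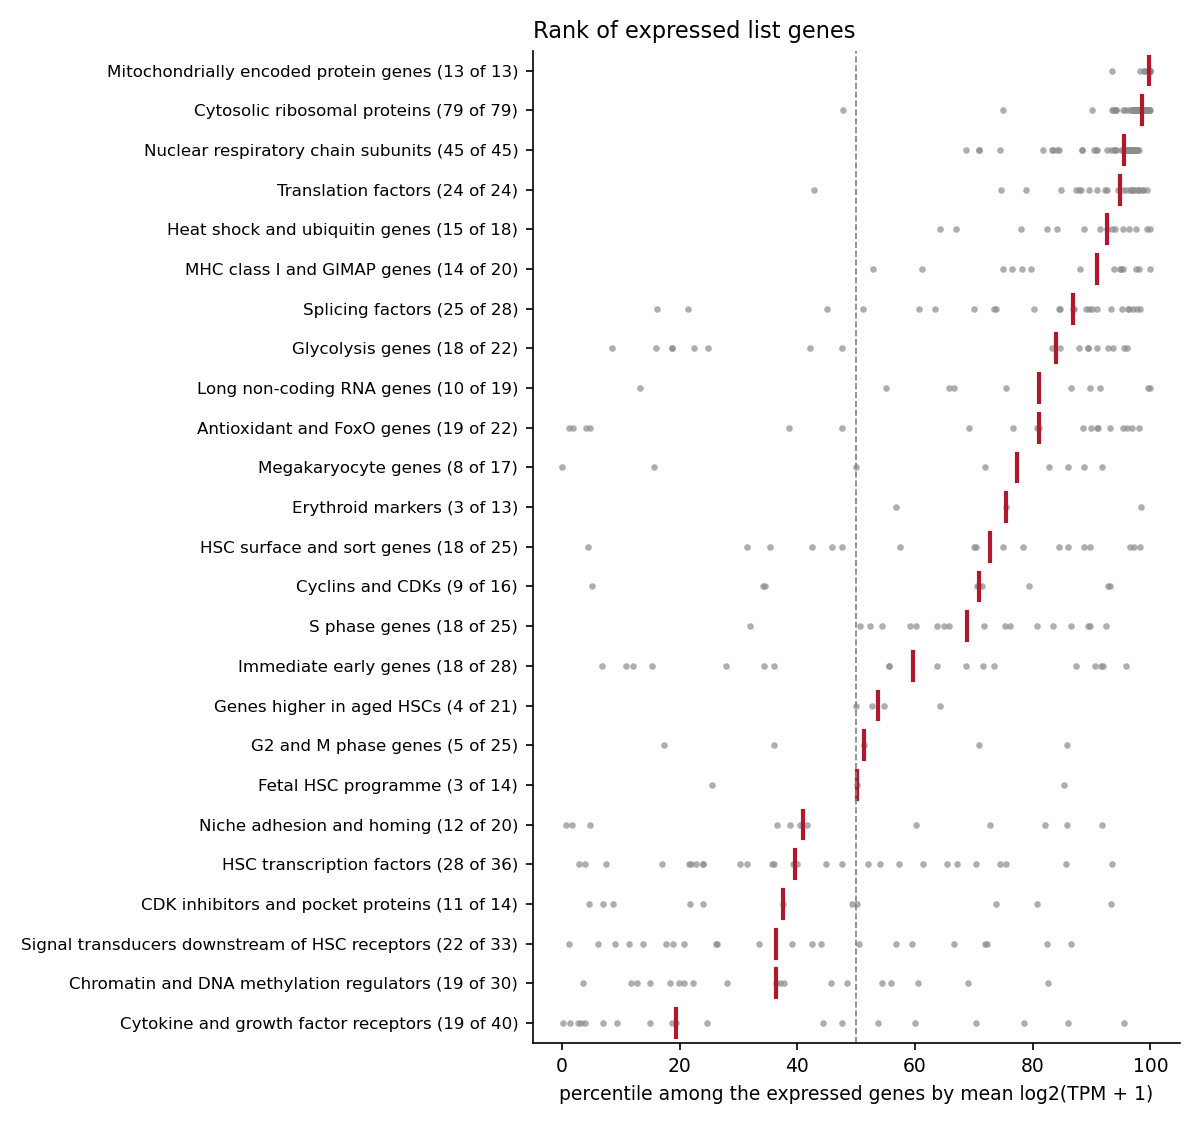
Percentile of each expressed list gene among the 6084 expressed genes (grey points) and the median of its list (red bar), for lists with at least 3 expressed genes, the counts in brackets being expressed genes of those in the table. Mitochondrial (99.7) and ribosomal protein genes (98.6) lie at the top, and cytokine receptors (19.3) at the bottom.

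The libraries agreed in part. Over the expressed genes, Pearson's r of log2(TPM + 1) was 0.847 between replicates 2 and 3, 0.739 between 1 and 3, and 0.715 between 1 and 2 (mean 0.767, SD of the pairs 0.0703). This r is across genes, which are not independent replicates. Of the 100 highest genes, replicates 2 and 3 shared 89, whereas replicate 1 shared 62 and 65 with them. The share of expressed genes that differed by over 1 on the log2 scale was 32.4% between replicates 2 and 3 and 49.4% and 47.9% for replicate 1 with each. The median SD of a gene over the 3 libraries was 0.762, and it fell from 0.986 in the 1521 lowest genes by level to 0.521 in the 1521 highest. With 1 library left out, the median spread, over the genes that pass in the others, was lower in each case. It was 0.486 without replicate 1, 0.684 without replicate 2 and 0.694 without replicate 3. The smallest SDs among these 1521 highest genes belonged to Cep85 (176, 175 and 176 TPM), Ost4 (341, 351 and 350 TPM), Mrps18c (307, 298 and 300 TPM), Set (192, 191 and 197 TPM) and Sfpq (79.0, 81.4 and 82.7 TPM). According to the study's methods, one control library was tagmented with another kit than the rest. The names put replicate 1 in one series and replicates 2 and 3 in another, which matches this division by number, but the labels give the same protocol for all, so that the kit of each library is an inference. Kit, sex and replicate 1 cannot be told apart. Sex-linked genes matched the labels, with Eif2s3y of the Y chromosome at 41.6, 0 and 0 TPM and Xist at 0.0273, 5.16 and 22.5 TPM.

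Replicate 1 also held most of the genes in which a single library stood more than 2 on the log2 scale beyond both others. It was higher in 155 of the 6084 expressed genes (2.55%) and lower in 474 (7.79%). Replicate 2 was higher in 49 (0.805%) and lower in 178 (2.93%), and replicate 3 was higher in 91 (1.50%) and lower in 40 (0.657%). After quantile normalization the counts for replicate 1 were 239 higher and 307 lower, and those for replicate 3 turned to 42 higher and 85 lower, while rescaling over nuclear protein-coding genes gave 96 higher and 570 lower for replicate 1. Of the ribosomal protein genes 9 of 79 (11.4%) were among those higher in replicate 1, beside 2.55% of all expressed genes. The 3 largest gaps upward were those of Gm11168 (578, 3.17 and 4.46 TPM), Gm10717 (1597, 5.77 and 15.9 TPM) and Gm21738 (521, 6.41 and 5.90 TPM). Gm11168 and Gm10717 belong to a cluster of 7 predicted genes at chr9:3000922-3033289, at the centromeric end, that share at least 94.6% identity over most of their length with another of the cluster. The cluster summed to 11659, 97.2 and 219 TPM, so that its signal lay mostly in replicate 1, and it cannot be divided with certainty among its members. The 3 largest gaps downward were those of Rfc3, of the clamp loader (1.18, 172 and 129 TPM), Il18, a cytokine (1.45, 143 and 141 TPM), and Gbp7, an interferon-induced GTPase (1.12, 116 and 112 TPM), again in replicate 1.

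Replicate 1 was higher than the others for the shortest transcripts. For the 101 expressed nuclear protein-coding genes with a principal transcript under 600 bases, the median difference of replicate 1 from the mean of replicates 2 and 3 was 1.0 on the log2(TPM + 1) scale, and 84.2% were higher in replicate 1. Between 600 and 1000 bases it was 0.0305 (448 genes), and above 1000 bases it showed no further trend, with -0.389 from 1000 to 2000, -0.443 from 2000 to 4000, -0.400 from 4000 to 8000 and -0.342 above 8000 bases. Over all 5682 genes Spearman's rho of the difference with length was -0.0832, across genes of the same libraries. Without the ribosomal protein genes the value under 600 bases was 0.810 in 84 genes. Replicate 2 minus replicate 3 had medians between -0.388 and -0.0912 over the same bins. After rescaling and quantile normalization the value under 600 bases was 0.845 and 0.976. Whether length has a part in the levels of ribosomal proteins in replicate 1 was not tested, and the 39 shorter of them (under 878 bases) had a median difference of 1.29 beside 0.851 for the 40 longer.

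**Figure D4:**
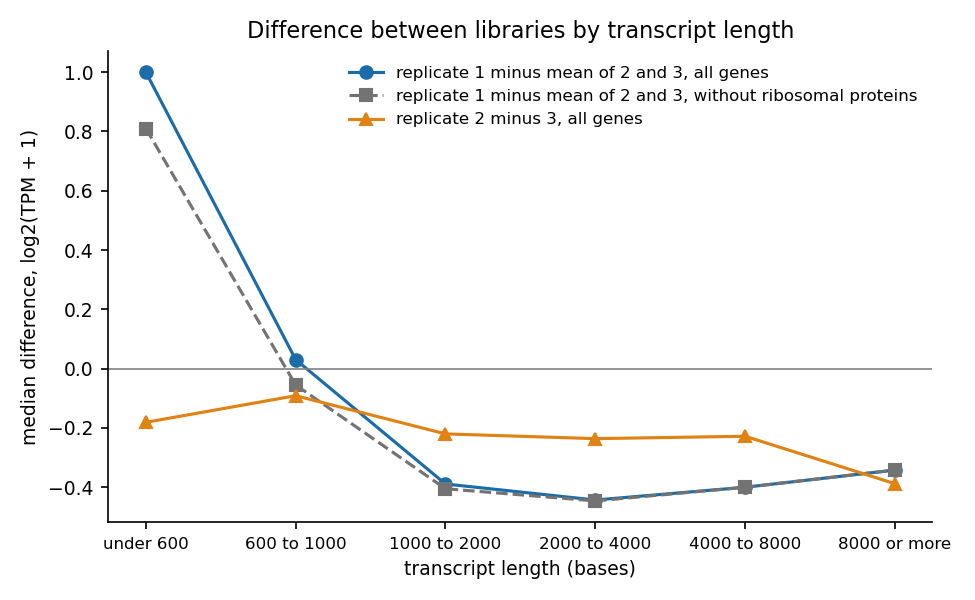
Median difference between libraries in log2(TPM + 1), by length of the principal transcript in bases, for expressed nuclear protein-coding genes. Replicate 1 lies 1.0 above the mean of the others for transcripts under 600 bases (0.810 without ribosomal protein genes) and at -0.443 for 2000 to 4000 bases, and replicate 2 stays below replicate 3 in every bin.

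Genes at moderate levels were often below the limit in 1 of the libraries. Of nuclear protein-coding genes, 5682 reached 1 TPM in all 3 libraries, 2767 in 2 and 2904 in 1, and the median of the highest library was 51.6, 15.1 and 4.81 TPM in these classes. Where the lower of the other libraries held a gene at 10 to 20 TPM, replicate 1 had it below 1 TPM in 26.7% of cases (359 of 1347), replicate 2 in 13.5% and replicate 3 in 3.68%. At 100 TPM or more these shares were 0.540%, 0% and 0%. A gene missing from the expressed set by 1 library, such as Hoxa7, Tal1 or Ezh2 in replicate 1, is therefore not shown to be absent from these cells. The shares cover only genes that both other libraries hold. Over all genes, 10792, 9021 and 11084 reached 1 TPM in replicates 1, 2 and 3, and 20208, 14766 and 16961 were above 0. Replicate 1 was thus not the library with the fewest genes. At the edge of the rule lay Wdfy4 (1.72, 2.87 and 1.0 TPM) and Zmiz1 (1.0, 11.5 and 13.6 TPM) just inside it, and Zfp362 (0.999, 6.37 and 7.88 TPM), Arsb (2.54, 0.995 and 9.11 TPM) and Eif2ak1 (0.995, 5.29 and 8.51 TPM) just outside it.

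**Figure D5:**
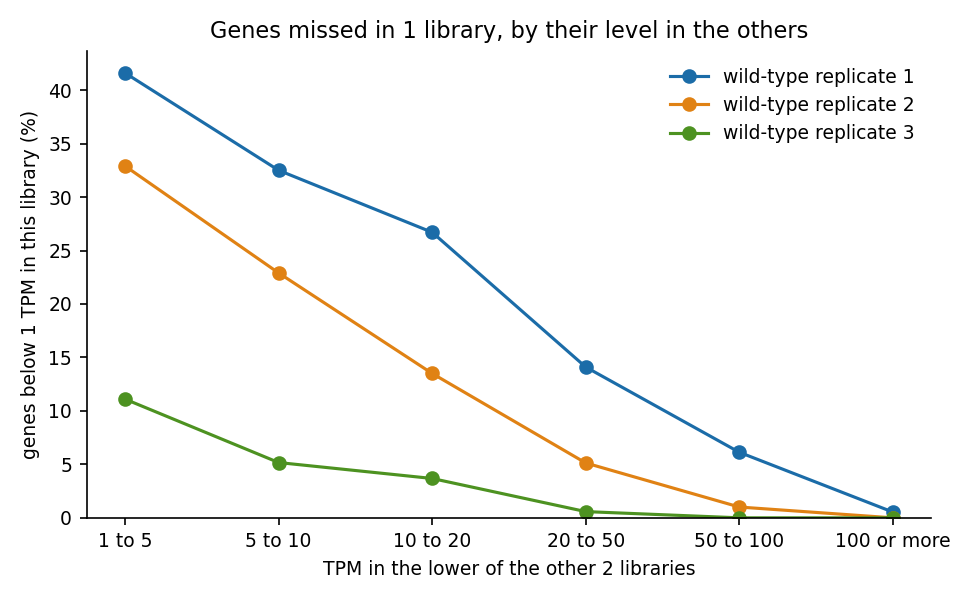
Share of nuclear protein-coding genes below 1 TPM in a library, in percent, by their TPM in the lower of the other 2 libraries, with 1 line for each wild-type library. Of genes that both other libraries hold, replicate 1 misses the most at every level, 26.7% at 10 to 20 TPM. Replicate 3 misses the fewest there, 3.68%.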

How the data were processed

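Levels were taken from 1 deposited table of TPM per gene, which the authors made from poly(A) RNA of sorted HSCs amplified by a full-length template-switching protocol and tagmented. For their own count test the authors aligned reads to mm10 with gsnap and counted fragments with featureCounts 2.0.1; the software behind the TPM is not given in the sources used here, nor is use of strand. Each library summed to 1000000 TPM over 55427 rows. The 92 spike-in rows were at 0 and were removed, which left 55335 genes. TPM keeps no sequencing depth, so no counting error was attached to a value, and the precision is known only from the spread of the 3 libraries, which may be partly technical, since nothing says that they came from separate animals. A TPM is a share, so a rise of one class lowers all others.

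Gene types, positions and lengths came from GENCODE M21 (GRCm38, the build called mm10), in which 55154 identifiers (99.7%) were found. Length is that of the longest APPRIS principal transcript. Values were transformed to log2(TPM + 1). Gene lists, 33 with 715 symbols, were matched by symbol; 2 symbols were not in the table and, where a symbol had several identifiers, the highest was used. The members and lists were chosen with earlier results of these data known. Genes named are the 6 markers, the highest 20 nuclear protein-coding, 5 mitochondrial and 5 non-coding genes, up to 6 expressed genes of each list with its exceptions, those of largest or smallest spread, those next to the limit and those of largest gap; other names are said to be chosen after their values were seen, which also holds for the pseudogene copies and for genes given as examples of a missed or absent list member. Copies were found with blastn. The ranking, counts and quantile normalization were tested on simulated data. Python 3.11.15, numpy 2.4.6 and pandas 2.3.3 were used. The alternatives were other limits, pseudocounts and scalings, and leaving out each library. Some genes that this rule names are not reported here.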

Additional observations from a re-analysis of the deposited data

How the results depend on the processing

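The number of expressed genes, 6084, depended most on the rule: 11059 genes were above 0 TPM in all libraries and 9539 reached 1 TPM in at least 2 of 3, while limits of 0.5 and 5 TPM gave 6719 and 4569, and rescaling over nuclear protein-coding genes 5932. Leaving out 1 library gave from 6490 to 7845 genes, since fewer libraries had to pass. The mean correlation lay between 0.731 and 0.819 over the other pseudocounts, ranks and no filter, and between 0.714 and 0.834 with 1 library left out. The median spread was 0.730 to 0.809 over the scalings and the pseudocount, and 0.486 to 0.694 with 1 library left out, the lowest being without replicate 1, over the genes that pass in the others; the cause was not tested. The mitochondrial share was 15.7% to 18.9% with 1 library left out. Over all lists 456 genes were expressed, from 460 to 507 with 1 library left out, and 397 to 542 over the other rules; their median percentile, 85.5, stayed between 84.1 and 85.6. The number of genes in which 1 library stood apart, 987, was 878 to 1221. For single lists, 22 of 198 counts moved by over 1.5 times and 28 of 148 median percentiles by more than the SD over libraries. No paired analysis was possible because 1 group was described and no result comes from a test. Depth is unknown, so a level near the limit of 1 TPM cannot be told from a missed gene.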
